A study of Homo sapiens with 12 samples.

Results

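Poly-A RNA was compared between 3 libraries of CUTLL1 cells labelled DMSO and harvested at 48 h and 3 labelled DMSO and harvested at 12 h, which are 6 of the 12 libraries of the series. CUTLL1 grew from a human T-cell acute lymphoblastic leukaemia and carries a rearranged NOTCH1 gene that gives a constitutively active receptor, and some labels spell its name CUTTL1. By their labels both groups received solvent (DMSO) and no inhibitor. Both were described as seeded at the same density in medium with fetal bovine serum. The other 6 libraries carry the labels GSI 12 h and GSI 48 h, for Compound E at 1 µM, which blocks the protease gamma-secretase. As labelled, the comparison follows the solvent control of that treatment over time in culture, within a single cell line. The levels of NOTCH1 targets raise a question about these labels, described below. The labels do not say whether replicates are separate cultures, and the spread behind every p-value may therefore be technical. In bulk samples like these, fewer cells of a type and less RNA per cell cannot be told apart.

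Notch is a receptor that is cut by gamma-secretase once activated. Its freed intracellular part joins the DNA-binding protein RBPJ and a Mastermind coactivator, and the complex turns on genes such as HES1, DTX1 and MYC. In T-cell leukaemia with active NOTCH1 this programme drives growth, in large part through MYC, which in turn raises the machinery that makes ribosomes. Developing T cells use the same pathway at the stage of the pre-T-cell receptor, before they rearrange the T-cell receptor alpha locus.

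Recovered depth was 109616415 to 122490751 reads in the libraries labelled 12 h and 94803786 to 160702764 in those labelled 48 h. Libraries with the same replicate number deviated together, so the 48 h and 12 h libraries were compared within numbers. The 12 identity genes of the line were present at both times, though 6 of them fell and 3 rose (4 and 1 without the block), with a median log2 change of −0.18. CD3E had 58319 to 76042 normalised reads at 12 h and 56898 to 72369 at 48 h and was not called. CD7, a T-cell surface protein, fell from a mean of 11866 to 8049 (−0.56 ± 0.07 SE, limma adjusted p = 0.000133, and 0.036 without the block), while CD3D (−0.33) and CD3G (−0.31), chains of the T-cell receptor complex, fell with the block only. Of the lists of myeloid, erythroid, and fibroblast or epithelial markers, 4 of 12, 3 of 11 and 3 of 11 genes passed the filter on low values, and each list summed to at most 1293 normalised reads in any of the 6 libraries. Of 10 B-cell markers 2 passed. CD79A, a chain of the B-cell receptor complex, differed more between replicate numbers than between labels and was not called, at 0.22 ± 0.09 SE on the log2 scale, though it was higher at 48 h in all 3 pairs (limma adjusted p = 0.082, 0.0472 with upper-quartile scaling and 0.00491 when the 6 DMSO libraries were fitted alone). The B-cell list summed to 1892, 2533 and 673 normalised reads in replicates 1, 2 and 3 at 12 h and to 2017, 3060 and 820.4 at 48 h. Among the other markers ITGAM, an integrin of myeloid cells, was called lower (mean of 442 against 294 normalised reads, −0.60 ± 0.17 SE), as was CDH1, an epithelial cadherin (43.2 against 19.3, −1.21 ± 0.33 SE). Their libraries did not overlap, and neither was called without the block, without replicate 1 or without replicate 2. ITGAM was not called without replicate 3 either. The part of these cell types in the results was not tested.

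The levels of NOTCH1 target genes raise a question about the labels. NRARP averaged 42352 normalised reads in the libraries labelled DMSO 12 h, 21930 in GSI 12 h, 3030 in DMSO 48 h and 1701 in GSI 48 h. DMSO contains no inhibitor of Notch, yet the libraries labelled DMSO 48 h lay below those labelled GSI 12 h. Whether labels were exchanged was not tested, and the time of harvest cannot be told apart from the label. All groups below are therefore the libraries labelled so, and each direction is drawn from those labels.

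Of 19281 genes tested, 5622 (29.2%) differed between the labels at a Benjamini-Hochberg adjusted p under 0.05 in limma, with the replicate number as a block. Of these 2686 (13.9%) were higher and 2936 (15.2%) lower at 48 h. Most calls were small in size, and 4267 of them were under 1.5-fold. At least 2-fold differences numbered 271 higher (1.41%) and 290 lower (1.50%), and at least 4-fold differences 17 higher and 78 lower. Without the block 874 genes were called, 391 higher (2.03%) and 483 lower (2.51%), and all 874 were among the 5622. The count fell to 2972 without replicate 2 and to 3540 without replicate 3. The 3 libraries of one label lay wholly above those of the other for 2168 genes higher at 48 h (11.2%) and 2517 lower (13.1%). Gene lists are described below by their counts, to be read beside these shares of all genes, 13.9% higher and 15.2% lower. They are also described by their median log2 change, which was −0.0019 over all genes tested.

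NOTCH1 target genes were lower at 48 h. Of the 16 genes in the list, all of which passed the filter, 13 fell and none rose, against the 15.2% of all genes called lower. Their median log2 change was −1.72, and it was −1.28, −1.53 and −2.08 within replicates 1, 2 and 3. All 13 had libraries that did not overlap between the labels, and 11 were also called without the block. NRARP, a feedback inhibitor that binds the Notch complex, had 36766, 49346 and 40943 normalised reads in replicates 1, 2 and 3 at 12 h and 3186, 3564 and 2340 at 48 h. Every 48 h library was far below every 12 h library (log2 change −3.82 ± 0.16 SE, n = 3 pairs, limma adjusted p = 9.25e-08). DTX1, a ubiquitin ligase that modulates Notch, had 76829, 94663 and 82974 at 12 h and 11488, 12790 and 10524 at 48 h (−2.87 ± 0.07 SE, limma adjusted p = 3.18e-09). The spread between libraries of a label was small beside this difference.

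The HES and HEY genes encode the repressors that carry out much of the Notch response. HES4 fell from 24428, 28084 and 20874 normalised reads to 7539, 9433 and 4155 in replicates 1, 2 and 3 (log2 change −1.87 ± 0.11 SE). HES5 fell from 699.7, 1145 and 1178 to 203, 190.3 and 186 (−2.34 ± 0.17 SE). HEY1 was lower in abundance, at 135, 224 and 186 at 12 h and 19.8, 16.9 and 14.6 at 48 h (−3.31 ± 0.22 SE). HES1 changed less, from 4715, 4895 and 4382 to 2914, 3601 and 2466 (−0.66 ± 0.12 SE, limma adjusted p = 0.00144, and 0.0656 without the block). HEY2 fell too, with a log2 change of −1.75 (limma adjusted p = 0.0019, and 0.0577 without it). HEYL did not pass, with 16.8 to 25.0 normalised reads at 12 h and 15.9 to 20.1 at 48 h.

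Of the other targets, NOTCH3, a receptor gene itself under Notch control, had 59910, 59509 and 81302 normalised reads at 12 h and 17970, 13060 and 19483 at 48 h (log2 change −1.995 ± 0.08 SE). CR2, a complement receptor, differed between replicates as well as between labels, with 21610, 44029 and 37284 at 12 h and 5774, 12127 and 7996 at 48 h (−1.99 ± 0.07 SE). PTCRA, the alpha chain of the pre-T-cell receptor, fell by 1.70 on the log2 scale. MYC, the transcription factor that drives growth, had 25699, 29455 and 26307 at 12 h and 11743, 13159 and 12150 at 48 h (−1.14 ± 0.06 SE, limma adjusted p = 9.83e-07). SHQ1, a factor for assembly of small nucleolar particles, changed by −1.11 and IGF1R, a growth factor receptor, by −0.53, and both fell. NOTCH1 itself did not pass, at 207364, 198895 and 186896 at 12 h and 200991, 202915 and 186130 at 48 h, so its libraries overlapped throughout. IL7R, the receptor for interleukin-7, did not pass either, with a log2 change of −0.16 ± 0.08 SE.

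**Figure D1:**
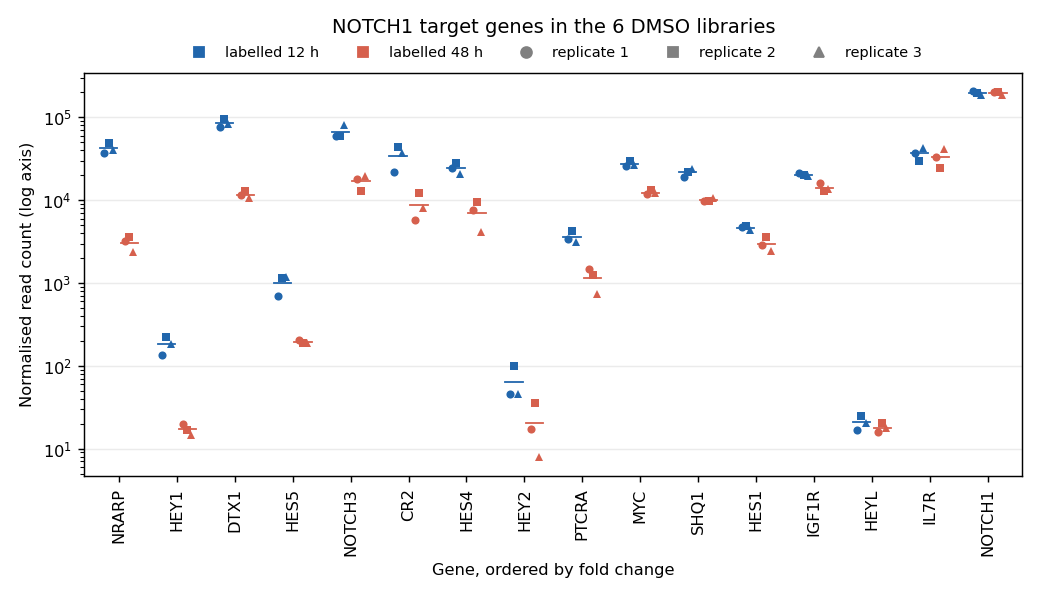
Normalised read counts (log axis) of the 16 NOTCH1 target genes in the 6 DMSO libraries, with a point for each library, its shape giving the replicate number, and a line at each group's mean. The 13 genes called lower show no overlap between the labels, while HEYL, IL7R and NOTCH1, the last at 186130 to 207364 reads, overlap.

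Promoters of the NOTCH1 targets, called or not, were read from RefSeq's GRCh38.p14 table, which holds 13 of the 16 genes. They are shown because RBPJ, the DNA-binding partner of Notch, binds a core written GTGGGAA on one strand and TTCCCAC on the other. That core occurred in 5 of the 13 windows (38.5%), those of HES1, HES4, HES5, HEY2 and HEYL, against 6.25% of all 35116 windows of the same length. Each window runs from 250 bases before to 50 after the start of the gene, 5′ to 3′ along the gene's strand, with matches in capitals. HES5 has a pair of matches on opposite strands, and those of HES4, HES1 and the second of HES5 start 77, 85 and 81 bases before the gene.
HES4, chr1:1000048-1000347, minus strand: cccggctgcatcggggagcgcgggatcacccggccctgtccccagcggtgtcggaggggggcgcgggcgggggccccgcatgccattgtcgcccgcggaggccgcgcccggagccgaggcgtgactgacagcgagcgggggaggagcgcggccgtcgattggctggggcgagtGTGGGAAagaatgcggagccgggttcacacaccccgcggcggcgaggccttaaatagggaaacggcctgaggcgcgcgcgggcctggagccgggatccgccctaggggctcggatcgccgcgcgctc
HES5, chr1:2530214-2530513, minus strand: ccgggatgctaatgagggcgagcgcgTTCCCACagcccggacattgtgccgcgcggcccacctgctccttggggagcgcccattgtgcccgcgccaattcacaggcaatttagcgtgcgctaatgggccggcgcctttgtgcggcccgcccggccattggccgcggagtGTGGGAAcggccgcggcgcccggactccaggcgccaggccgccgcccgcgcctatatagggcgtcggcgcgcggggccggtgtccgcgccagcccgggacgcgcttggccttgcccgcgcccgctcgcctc
HES1, chr3:194135898-194136197, plus strand: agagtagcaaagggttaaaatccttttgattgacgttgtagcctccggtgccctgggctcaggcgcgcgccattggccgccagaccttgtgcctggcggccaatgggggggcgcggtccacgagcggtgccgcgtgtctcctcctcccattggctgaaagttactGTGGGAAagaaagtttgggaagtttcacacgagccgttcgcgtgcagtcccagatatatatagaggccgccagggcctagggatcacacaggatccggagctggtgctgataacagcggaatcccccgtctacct
HEYL, chr1:39639594-39639893, minus strand: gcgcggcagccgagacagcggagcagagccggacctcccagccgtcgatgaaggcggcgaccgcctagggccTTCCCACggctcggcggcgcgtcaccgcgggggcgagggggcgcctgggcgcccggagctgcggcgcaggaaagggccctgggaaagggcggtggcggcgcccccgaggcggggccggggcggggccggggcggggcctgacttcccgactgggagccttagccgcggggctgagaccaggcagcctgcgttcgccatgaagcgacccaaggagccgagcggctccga
HEYL holds a match, and its transcript count did not pass the test, while the window of NRARP holds none. A match is a stretch of letters and not a measured binding site.

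The machinery that produces and reads the Notch signal was called about as often as genes at large. Of 30 receptors, ligands, processing enzymes and cofactors kept, 4 rose and 6 fell, against 29.2% of all genes called, none of them without the block, and the median log2 change was −0.01. Without replicate 2 only 3 of the 6 fell. ADAM10, the protease that makes the first cut in the receptor, had 18531, 16764 and 17862 normalised reads at 12 h and 22421, 23668 and 24108 at 48 h (log2 change 0.40 ± 0.06 SE). The related protease ADAM17 rose by 0.14 on the log2 scale. LFNG and MFNG, sugar-adding enzymes that tune ligand choice, went opposite ways, LFNG up by 0.89 ± 0.17 SE at a level of 29.2 to 103 reads and MFNG down by 0.56 ± 0.09 SE at 2215 to 4694 reads. MAML2, a Mastermind coactivator, rose from 8.85, 11 and 7.96 to 15.9, 23.4 and 24.7 reads. The fucosyltransferase POFUT1 changed by −0.33, the corepressors TLE3 by −0.28 and SPEN by −0.21, the receptor NOTCH2 by −0.17 and the ubiquitin ligase DTX4 by −0.37, and all 5 fell. ADAM17, NOTCH2 and DTX4 were no longer called without replicate 2 or without replicate 3, and SPEN was no longer called without replicate 2.

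The largest fall among all genes was that of EXD3, which lies next to NRARP on chromosome 9 in RefSeq's order of genes. EXD3 had 7963, 12841 and 8827 normalised reads at 12 h and 417, 377 and 221 at 48 h (log2 change −4.88 ± 0.16 SE, limma adjusted p = 2.52e-08). Of the genes near this pair, TOR4A (0.26 ± 0.17 SE) and NSMF (0.34 ± 0.13 SE) were not called. ALDH3B2, an aldehyde dehydrogenase, fell from 798, 1108 and 863 reads to 53.2, 79.2 and 21.3 (−4.32 ± 0.25 SE). Its neighbour ACY3, an aminoacylase, fell from 83.1 to 123 reads at 12 h to 6.73 to 11.9 at 48 h (−3.37 ± 0.30 SE), and TBX10 (−1.36) and NUDT8 (−1.35) beside them fell as well. These neighbours were chosen after their values were seen, and without strand in the counting, reads of overlapping genes cannot be told apart.

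WNK2, a kinase, had 11953, 20016 and 15582 normalised reads at 12 h and 1341, 1877 and 1036 at 48 h (log2 change −3.49 ± 0.10 SE). CPA4, a carboxypeptidase, fell from 291, 604 and 308 reads to 43.6, 48.7 and 20.2 (−3.39 ± 0.24 SE), and the nearby MEST, chosen after its value was seen, by 2.08 on the log2 scale. The other genes described here among the largest falls were LINC01120 (−3.32), TMEM132D (−3.29), DCLK3 (−3.15), HOMER2P2 (−3.02) and the heavy-chain segments IGHV4-34 (−3.35), IGHV1-24 (−3.14) and IGHV3-38 (−3.11), with NRARP and HEY1. All 14 were also called without the block.

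Within the same limits, the largest rise was that of CCR2, the receptor for the chemokine CCL2. It had 21.2, 6.99 and 9.72 normalised reads at 12 h and 194, 189.6 and 164 at 48 h (log2 change 3.88 ± 0.26 SE, limma adjusted p = 2.89e-06). In the chromosome 3 cluster around it CCR1 (1.58 ± 0.47 SE) and CCRL2 (0.65 ± 0.16 SE), chosen after their values were seen, rose with the block but not without it (limma adjusted p = 0.11 and 0.203 without it). SCG2, a secretory granule protein, rose from 67.2, 24.0 and 50.4 to 529.9, 279.9 and 370.4 reads (3.10 ± 0.24 SE). IL26, a cytokine of the interleukin-10 family, rose from 179, 139 and 173 to 613, 564 and 681 (1.92 ± 0.09 SE).

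FRY rose from 306, 289.7 and 246 normalised reads to 1169, 1490 and 807 (log2 change 1.9999 ± 0.11 SE). SMPD1, the acid sphingomyelinase of lysosomes, rose from 889, 378 and 433 to 2561, 1983 and 1736 (1.97 ± 0.13 SE). PTGDR2, a prostaglandin D2 receptor, rose by 1.68 and PROX1, a homeobox transcription factor, by 1.67 on the log2 scale. LINC00887 (2.52) and the T-cell receptor alpha segments TRAV8-2 (2.51), TRAJ31 (2.26), TRAV8-4 (1.90), TRAJ32 (1.86), TRAJ2 (1.77) and TRAV8-3 (1.62) were also among the largest rises. As with the falls, the block was not needed for any of these 14 calls. In the plot of the largest changes the genes that rose mostly sit at lower counts than NRARP, WNK2 and EXD3, which fell from high levels.

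**Figure D2:**
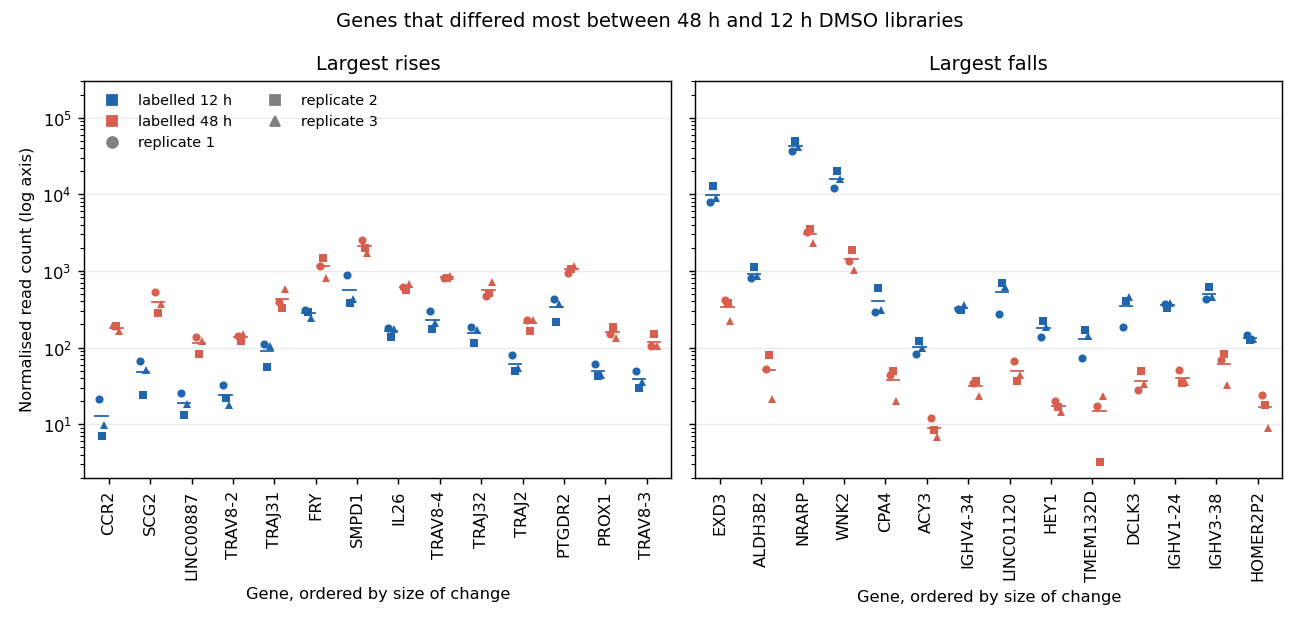
Normalised read counts (log axis) in each of the 6 DMSO libraries for 14 of the 15 genes that rose most (left) and 14 of the 15 that fell most (right), limited to called genes whose labels did not overlap and whose higher group averaged 100 or more. Points are libraries, shapes are replicate numbers and lines are group means, and CCR2 goes from 6.99 to 21.2 reads up to 164 to 194.

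Transcripts of ribosome biogenesis factors were lower at 48 h, by small amounts in many genes. All 28 ribosome biogenesis genes kept fell, with a median log2 change of −0.57 and changes from −0.93 to −0.37, and 16 of them also without the block. For all 28 the libraries of the labels did not overlap. RRP12, an export factor of the small subunit named here as the largest fall after values were seen, changed by −0.93 ± 0.08 SE. WDR43, a factor of the small subunit processome, had 15990, 20244 and 17799 normalised reads at 12 h and 10127, 11749 and 11176 at 48 h (−0.71 ± 0.05 SE, limma adjusted p = 3.06e-06). NPM1, an abundant nucleolar chaperone, had 157876, 206034 and 180759 at 12 h and 109113, 134553 and 118706 at 48 h (−0.58 ± 0.05 SE). TSR1, a maturation factor of the small subunit, fell by 0.56 on the log2 scale, and without the block its limma adjusted p was 0.0507.

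MYC binds E-boxes written CACGTG, which reads the same on both strands. That word was in 11 of the 24 ribosome biogenesis promoter windows in the RefSeq table (45.8%), among them those of WDR43, NOP2 and FBL, and in 7.26% of all 35116 windows. It was in 1 of the 13 windows of NOTCH1 targets. The 35116 windows were not limited to genes kept here. A match is not a measured binding site, and the part of MYC in the fall of these transcripts was not tested.

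Other parts of protein synthesis moved the same way. Of 22 subunits and factors of RNA polymerases I and III 15 fell (4 without the block), with POLR1C at −0.64, POLR3D at −0.57 and TAF1D at −0.53. Of 27 cytosolic ribosomal proteins 26 fell (1 without the block), within a narrow range of −0.39 to −0.14 for the list. RPL4, of the large subunit, had 118664 to 138849 normalised reads at 48 h against 151711 to 182710 at 12 h (log2 change −0.37 ± 0.04 SE, limma adjusted p = 0.000116, and 0.0872 without the block). Of 21 translation factors 20 fell (1 without the block), among them the initiation factor subunit EIF3B (−0.52) and the elongation factors EEF2 (−0.38) and EEF1B2 (−0.35). Of 20 aminoacyl-tRNA synthetases 12 fell (1 without the block, and 6 without replicate 2), led by VARS1 (−0.60). LARS1 (−0.44) and FARSB (−0.45) fell only with the block. Of 24 mitochondrial ribosomal proteins 20 fell (2 without the block), with MRPS2 at −0.52, MRPL15 at −0.44 and MRPL3 at −0.39.

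The hosts of small nucleolar RNAs, long non-coding genes whose introns carry guides for ribosomal RNA modification, were among these. Of 14 kept, 13 fell (4 without the block), and the median log2 change was −0.42. SNHG16 had 2147, 2715 and 2316 normalised reads at 12 h and 1288, 1544 and 1463 at 48 h (−0.74 ± 0.06 SE). SNHG17 changed by −0.64 and GAS5 by −0.52, the latter with a limma adjusted p of 0.0507 without the block. Of 24 genes of nucleotide and polyamine synthesis 20 fell and 1 rose (3 falls without the block). ODC1, the first enzyme of polyamine synthesis, fell by 0.50 ± 0.04 SE, yet its libraries overlapped between labels because replicate 2 was high at both times, at 49276 and 33592 reads. The purine enzymes PPAT (−0.42) and PAICS (−0.43) fell only with the block.

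Within the network of MYC partners 2 of 12 genes rose and 3 fell. TFAP4, a factor induced by MYC, had 5191, 6622 and 5395 normalised reads at 12 h and 3402, 3916 and 3486 at 48 h (log2 change −0.67 ± 0.06 SE, called with and without the block). MAX, the partner of MYC, changed by −0.21 and MXD3, a MAX-binding repressor, by 0.60 (limma adjusted p = 0.23 and 0.0533 without the block). MAX was not called without replicate 2 or replicate 3, where 1 gene of the list rose and 1 fell in each case. Genes of heat shock and protein folding, chaperones and their regulators, were lower in 12 of 25 cases and higher in 2 (1 and 0 without the block). HSPD1 (−0.51) and HSP90AB1 (−0.52) fell and XBP1, a factor of the unfolded protein response, rose by 0.57, each with the block only.

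**Figure D3:**
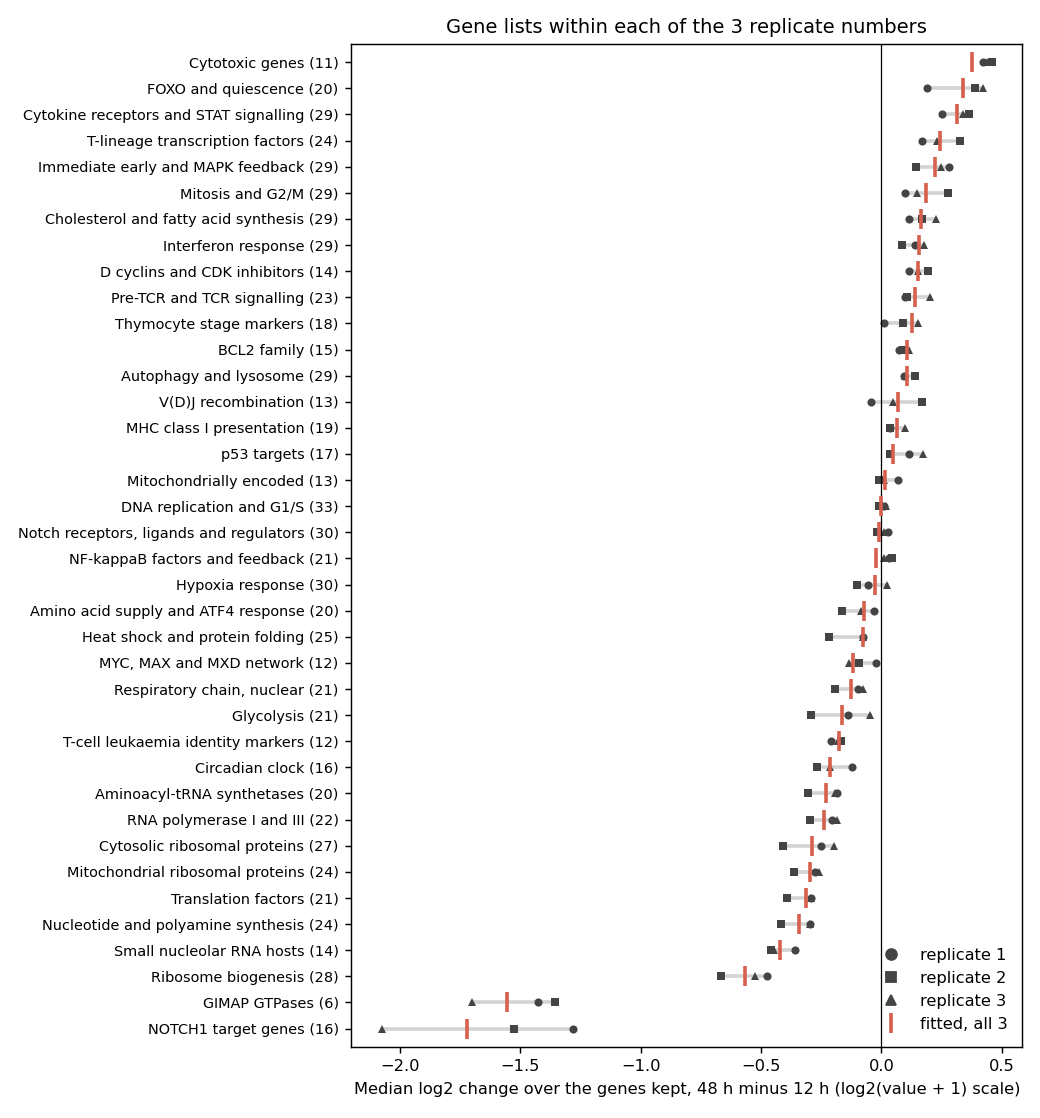
Median log2 change between 48 h and 12 h of each gene list, within replicates 1, 2 and 3 (dark shapes) and fitted over all 3 (red bars), with the number of genes kept in brackets. NOTCH1 targets (−1.72) and the GIMAP family (−1.55) lie far below the rest, the lists of ribosome biogenesis and protein synthesis lie between −0.57 and −0.23, and the lists of T-lineage factors (0.24) and cytokine receptors (0.32) lie above 0. The list of T-cell leukaemia identity markers lies below 0, at −0.18.

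Genes of T-cell identity moved in both directions. Of 24 transcription factors of the T lineage 11 rose and 5 fell, and 6 rose and 2 fell without the block. TOX, a factor of thymocyte selection, had 13480, 10192 and 13278 normalised reads at 12 h and 21748, 22640 and 25942 at 48 h (log2 change 0.94 ± 0.07 SE, limma adjusted p = 5.29e-06). Its relative TOX2 (1.36) and the T-cell regulators GATA3 (0.77), RUNX1 (0.56) and RUNX2 (1.303), all chosen after their values were seen, rose in both fits. RUNX3, by contrast, fell from 12652, 12470 and 8435 to 7232, 6467 and 5297 (−0.81 ± 0.06 SE). ID1, an inhibitor of E-proteins, fell from 772, 946 and 845 to 308, 247 and 259 (−1.65 ± 0.12 SE).

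Signalling genes of the pre-T-cell and T-cell receptor rose in 12 of 23 cases and fell in 3, with 4 and 1 without the block. PRKCQ, the kinase protein kinase C theta, had 6777, 5723 and 6989 normalised reads at 12 h and 9353, 9095 and 10296 at 48 h (log2 change 0.56 ± 0.05 SE). CD5, an inhibitory receptor, rose by 0.41. ZAP70, the kinase that binds the receptor's signalling chains, fell from 126432, 126875 and 109279 to 81496, 68398 and 64830 (−0.76 ± 0.05 SE), and CD3E did not pass at −0.04. Of 18 markers of thymocyte stages 7 rose and 4 fell (2 and 2 without the block). MME, also called CD10, rose by 1.42 and the lymph node homing receptor CCR7, chosen after its value was seen, by 0.82. CD69 rose by 0.65 with the block only, and CD1E, an antigen-presenting molecule of cortical thymocytes, fell by 0.49.

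Segments of the antigen-receptor loci stood out, and they were grouped by family after their values were seen. Reads of near-identical segments may be split between copies, so single segments are uncertain. Unrearranged segments can be transcribed from their own promoters when a locus is open. The T-cell receptor alpha variable segments were higher at 48 h, with sums over all 54 segments in the table of 19804, 19698 and 20006 normalised reads at 12 h and 41062, 53010 and 56968 at 48 h. All 10 that passed the filter rose, also without the block, and TRAV8-2 went from 32.7, 22 and 17.7 to 140.4, 123 and 152 reads. Only 8 of these 10 had at least 10 reads in all 6 libraries, all 8 of them called. The alpha joining segments summed to 1517, 584.5 and 945.9 reads at 12 h and to 3547, 2244 and 3093 at 48 h. Of 31 kept joining segments 29 rose, with the other 2 not called, and 6 rose without the block. Only 16 of the 31 had at least 10 reads in all 6 libraries, all 16 of them called, and for 19 of the 31 the labels did not overlap. The others could pass the filter only through the libraries where they were high.

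Heavy-chain variable segments of the immunoglobulin locus went the other way. Over all 121 segments in the table they summed to 3988, 5556 and 5388 normalised reads at 12 h and to 1349, 1924 and 1236 at 48 h. Of the 37 kept 32 fell (24 without the block), and their median log2 change was −2.34. Many passed the filter only through the libraries where they were high, and of the 13 with at least 10 reads in all 6 libraries 11 were called. IGHV4-34 had 317, 311 and 362 reads at 12 h and 34.9, 37.0 and 23.6 at 48 h. In the T-cell receptor beta locus 2 of 20 variable segments were called higher and 3 lower (0 of each without the block in limma, where 0 of the 20 had an unadjusted p under 0.05). Of its 8 joining segments limma, edgeR and DESeq2 each called 0, and 0 had an unadjusted p under 0.05. Beta variable segments summed to 76280, 103580 and 101386 reads in replicates 1, 2 and 3 at 12 h and to 82002, 123986 and 124937 at 48 h, and beta joining segments to 4393, 3750 and 3916 and to 4550, 4077 and 4252. Both sums were higher at 48 h in every pair, by less than the alpha sums.

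**Figure D4:**
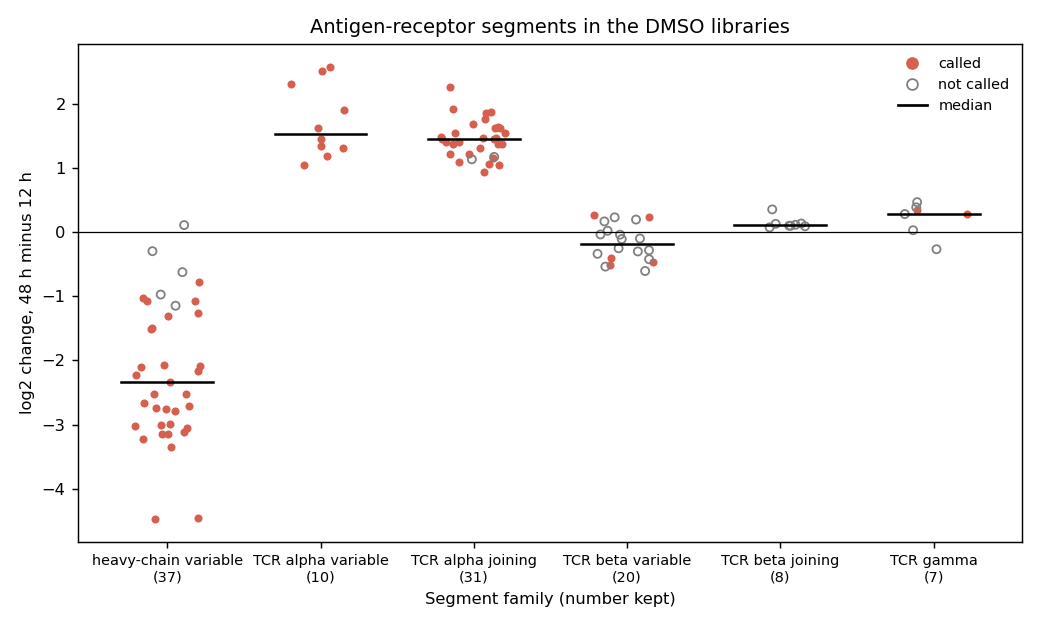
Log2 change between 48 h and 12 h of each antigen-receptor segment that passed the filter, by family, with called segments in red, others open, and a black line at the family median. Alpha variable and joining segments lie near 1.5, heavy-chain variable segments mostly between −3.5 and −1, and beta segments around 0.

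Genes of recombination itself were also called about as often as genes at large (29.2%). Of 13 genes 3 rose and 1 fell, and none of these was called without the block, without replicate 2 or without replicate 3. RAG2, a subunit of the recombinase, was at a log2 change of 0.23 ± 0.06 SE, the end-processing nuclease DCLRE1C at 0.24 and the repair kinase PRKDC at −0.20.

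All 6 GIMAP genes kept, a cluster of GTPases that support lymphocyte survival, fell, 5 of them also without the block. GIMAP7 fell from 1717, 2762 and 1178 normalised reads to 398, 668 and 294 (log2 change −2.05 ± 0.09 SE). GIMAP5 fell from 3602, 4677 and 2554 to 1079, 1201 and 679 (−1.87 ± 0.13 SE), and GIMAP1 by 1.51. Replicate 2 was the highest and replicate 3 the lowest at both times in these genes, so the fall was read within numbers.

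Cytokine receptors and their STAT pathway rose in 16 of 29 cases and fell in 1 (4 and 0 without the block). SOCS1, a feedback inhibitor of cytokine signalling, had 2765, 2029 and 1643 normalised reads at 12 h and 5160, 4532 and 4042 at 48 h (log2 change 1.12 ± 0.08 SE). TGFBR2, a receptor for TGF-beta, rose from 4482, 3974 and 3649 to 6808, 7224 and 6339 (0.75 ± 0.05 SE). PIM1, a kinase induced by STAT5, rose by 0.47 with the block only.

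In the list of immediate early and MAPK feedback genes 10 of 29 rose and 4 fell, 4 and 0 without the block, and 1 fell without replicate 2. Among its phosphatases DUSP6 rose by 0.73 ± 0.07 SE, DUSP10 by 0.97 ± 0.11 SE and DUSP4, from 397, 449 and 264 to 760.0, 907 and 567 normalised reads, by 1.02 ± 0.08 SE. EGR1, an immediate early factor named after its value was seen, rose by 1.13 ± 0.21 SE with the block (limma adjusted p = 0.311 without it), and its libraries overlapped. Among factors and feedback genes of NF-kappaB 7 of 21 rose and 3 fell (0 fell without replicate 2). Of all genes 13.9% rose and 15.2% fell. CD83 rose by 0.81 in both fits, and TRAF1 (1.00) and TNFAIP8 (0.28) rose with the block only.

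Of 11 cytotoxic genes 6 rose and 1 fell (3 and 0 without the block). The fall was that of KLRD1, from a mean of 339 to 214 normalised reads (log2 change −0.64 ± 0.15 SE). Among the rises GNLY was near the floor, with 0 to 5.31 reads at 12 h and 4.49 to 11.9 at 48 h. Both were named after their values were seen. KLRB1, a receptor of natural killer and some T cells, rose from 103, 108 and 62.8 normalised reads to 229, 433 and 167 (log2 change 1.51 ± 0.15 SE). GZMA, a granule protease, rose from 78.7, 50 and 36.2 to 232, 103 and 130.2 (1.46 ± 0.23 SE), and PRF1, perforin, by 0.96. CST7, a protease inhibitor chosen after its values were seen, was more abundant and rose with the block only, from 3839, 4073 and 3337 to 5146, 5612 and 5472 reads (0.53 ± 0.10 SE).

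Of 20 genes linked to FOXO factors and quiescence 9 rose and 1 fell (2 and 0 without the block). BTG2, an antiproliferative factor, had 2678, 2544 and 2265 normalised reads at 12 h and 4975, 5545 and 4757 at 48 h (log2 change 1.03 ± 0.06 SE). CCNG2, a cyclin that slows the cycle, rose from 3881, 2854 and 2733 to 6246, 7551 and 5908 (1.07 ± 0.10 SE). Among 14 D cyclins, their kinases and inhibitors, and genes of the RB and E2F families, 7 rose and 2 fell (3 and 1 without the block). CDKN2D (0.68) and CDKN2C (0.47), inhibitors of CDK4 and CDK6, rose. CDKN1B, which is outside this list, rose by 0.41 with the block only. The D-type cyclins went opposite ways. CCND1 fell from 529, 522 and 370.4 reads to 232, 203 and 137 (−1.32 ± 0.17 SE). CCND3, far more abundant and chosen after its value was seen, rose with the block only. It had 71131, 54901 and 72718 reads at 12 h and 82202, 79696 and 92868 at 48 h (0.37 ± 0.06 SE).

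Genes of mitosis were slightly higher. Of 29 kept 23 rose and 1 fell with the block, with a median log2 change of 0.19, while 1 rose without it. That count depended on single numbers, and it was 5 without replicate 2 and 13 without replicate 3. CDC25C, a phosphatase that starts mitosis, rose by 0.43 in both fits. TOP2A, a topoisomerase, had 148062 to 178040 normalised reads at 12 h and 201025 to 206207 at 48 h (0.34 ± 0.05 SE, limma adjusted p = 0.000644, and 0.195 without the block), and the kinase TTK rose by 0.33 with the block only. DNA replication genes were close to even, with 4 of 33 higher and 1 lower and a median of −0.0009. They were called less often than genes at large (29.2%). CCNE2 rose by 0.33 in both fits, and TK1 by 0.29 and RRM1 by 0.20 with the block only. Without replicate 3, RRM1 was not called and 2 of the 33 rose.

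In the BCL2 family 5 of 15 genes rose and 2 fell, none without the block. BCL2L11, which encodes the death-promoting protein BIM, had 3159, 4667 and 2696 normalised reads at 12 h and 1931, 2782 and 1532 at 48 h (log2 change −0.76 ± 0.05 SE, limma adjusted p = 2.53e-06, and 0.0533 without the block). It was lower in every pair although the labels overlapped. BMF, another death-promoting member, rose from 1018, 515 and 307 to 1710, 1182 and 486 (0.87 ± 0.16 SE) and BCL2 by 0.42. Without replicates 2 and 3 in turn, 2 and 3 members rose. Of 17 targets of p53 6 rose and 2 fell, with GADD45A at −0.79, AEN at −0.63 and the repair factor DDB2 at 0.29. Only GADD45A was called without the block, and 2 and 3 of the 17 rose without replicates 2 and 3.

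Metabolic genes moved in small steps. Of 29 genes of cholesterol and fatty acid synthesis 15 rose and 2 fell (2 and 0 without the block), and 8 rose without replicate 2 and 8 without replicate 3. SREBF1, a master regulator of fatty acid synthesis, had 14052, 10653 and 11661 normalised reads at 12 h and 18657, 15297 and 17097 at 48 h (log2 change 0.49 ± 0.05 SE). The desaturases FADS2 (0.49) and FADS1 (0.37) rose, FADS1 with the block only. In glycolysis 10 of 21 genes fell and 2 rose, none without the block, and 5 fell without replicate 2. HK2, a hexokinase, changed by −0.65 and PFKM, a phosphofructokinase, by −0.48, while the glucose transporter SLC2A3 rose by 0.85. GAPDH did not pass, at −0.06. The nuclear genes of the respiratory chain fell in 9 of 21 cases, none without the block and 3 without replicate 2, among them CYCS (−0.40), CYC1 (−0.37) and NDUFV1 (−0.28). Of 13 mitochondrially encoded genes limma called 0 with or without the block, as did edgeR and DESeq2, with 0 at an unadjusted p under 0.05, and their median was 0.02.

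The list of hypoxia response genes had no common direction, with 5 of 30 higher and 3 lower (0 and 1 without the block). Its genes were called about as often as genes at large (29.2%). VEGFA, the vascular growth factor, fell from 8385, 10580 and 7614 normalised reads to 2735, 2313 and 2016 (log2 change −1.91 ± 0.14 SE). BNIP3, a mitophagy receptor, rose from 405, 384 and 473 to 1071, 936 and 1499 (1.45 ± 0.14 SE) and NDRG1 by 1.11, both with the block only. Without replicate 2, 3 of the 30 rose. In the response to amino acid shortage 3 of 20 rose and 3 fell, again close to the share of all genes. None was called without the block, and 1 rose without replicate 2 or replicate 3. DDIT4 rose by 0.37, and the transporter SLC7A5 (−0.35) and the factor ATF4 (−0.23) fell. Autophagy and lysosome genes rose in 12 of 29 cases (1 without the block, and 7, 5 and 5 without replicates 1, 2 and 3). GABARAPL1, a protein of the autophagosome membrane, rose by 0.51, the protease CTSB by 0.29 and the cholesterol transporter NPC1 by 0.23.

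Interferon response genes rose in 10 of 29 cases and fell in 3 (1 and 0 without the block), and 4 rose without replicate 2 and 4 without replicate 3. STAT2, a factor of the interferon pathway, had 4593, 4097 and 4431 normalised reads at 12 h and 6204, 6259 and 5944 at 48 h (log2 change 0.49 ± 0.05 SE). IFI44 rose by 0.37 and IRF1 fell by 0.45 with the block only. Antigen presentation by MHC class I rose in 6 of 19 cases and fell in 1, against 29.2% of all genes called. None was called without the block. B2M, the light chain of the complex, changed by 0.25, the peptidase ERAP2 by 0.24 and the transporter TAP2 by −0.29. Of 16 clock genes 4 rose and 7 fell (1 and 0 without the block), with BMAL1 at 0.46 and DBP at −0.41. Without replicate 2 or replicate 3, 4 clock genes fell, and 2 rose without replicate 3.

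Long non-coding RNAs were called in 461 of 2987 cases, 262 higher and 199 lower. That is a smaller share than the 29.2% of all genes called. LINC00892, which lies next to the gene of the T-cell help factor CD40LG, rose from 186, 193 and 376 normalised reads to 493, 769 and 855 (log2 change 1.53 ± 0.19 SE). CD40LG itself, chosen after its value was seen, rose by 1.17 ± 0.36 SE with the block only (limma adjusted p = 0.271 without it). PROX1-AS1, antisense to PROX1, rose by 1.37, LINC01353 by 1.18 and LINC02965 by 1.16, the last with the block only. LINC02762 fell from 494, 524 and 359.8 to 96.0, 83.8 and 46.0 (−2.64 ± 0.14 SE). The adjacent LINC02763 (−1.75 ± 0.31 SE) and LINC02764 (−2.67 ± 0.49 SE), the latter chosen after its value was seen, fell with it. LINC01694 changed by −2.44 and FAM182B by −1.92, and both fell. Without strand in the counting, PROX1-AS1 cannot be told apart from PROX1 where they overlap.

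The change between the time labels was similar in direction in the GSI libraries for most genes. Of the 5622 genes called in DMSO 4888 (86.9%) had the same sign of change in GSI, against 67.1% of all genes, and Pearson's r across the 19281 genes was 0.591, which describes genes and not independent replicates. NOTCH1 targets had a median log2 change of −1.40 in GSI and ribosome biogenesis genes of −0.34. The difference between the changes was called for 1177 genes (6.10%) with the block and for 0 without it in limma, where 875 had an unadjusted p under 0.05. edgeR and DESeq2 called 1206 and 1321 with the block, and edgeR called 0 without it.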

How the data were processed

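The members compared, the gene lists and the tests were chosen with earlier results of these data known, so no list is independent support for its own direction. Antigen-receptor families, neighbouring genes and promoter words were chosen after values were seen.

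Per the submitters' processing notes, the authors worked on genome build hg19 with TopHat2 2.0.10 and HTSeq 0.6.1, and FastQC 0.10.1 and DESeq2 were also named. Their settings, annotation and strand handling were not given in the sources used here. What the authors deposited for 62069 Ensembl identifiers is a signal, which is each gene's read count over its library's size factor. All values (100%) were whole multiples of 1 read within 0.01, so reads could be recovered, 73939612 to 160702764 per library. In the text, normalised reads are the deposited values.

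Genes with a value of at least 10 in at least 3 of the 12 libraries were kept, which left 19281. limma 3.58.1 (R 4.3.3) with a trended prior was fitted to log2(value + 1) of all 12 libraries, with a time effect per treatment and the replicate number, within treatment, as a block (4 residual degrees of freedom). Log2 changes are 48 h minus 12 h on that scale, where the change of a low gene is understated, and SE is the moderated standard error. Every adjusted p comes from this fit unless the block is said to be left out, with Benjamini-Hochberg adjustment over all genes kept and a threshold of 0.05. Same-numbered DMSO libraries deviated together (correlations of 0.578, 0.612 and 0.545 across genes, against −0.38 to −0.176 between different numbers), which is where the pairing comes from, since no label states it. Deviations were taken from each group's mean, so positive values within numbers force lower ones between numbers. The values between numbers are therefore no separate evidence. Alternatives were edgeR 4.0.16 and DESeq2 1.42.0 on recovered reads, other blocks, filters, pseudocounts and scalings, and leaving out each replicate pair. The fit was tested on simulated data.

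Named genes were the 15 largest rises and falls (called, without overlap, and averaging 100 or more in the higher group), NOTCH1 targets, called Notch regulators, the called genes of smallest p of each list and long non-coding RNAs with a mean of at least 50. Of the genes this rule takes, 3 are not reported here. Any other gene is marked as picked with its values in view. Symbols matched 16495 of the 19281 genes, and GENCODE 29 gave a biotype to 18344.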

Additional observations from a re-analysis of the deposited data

Results flagged for a closer look

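For 37 of the genes named above, the change between the 48 h and 12 h labels differed between the DMSO and the GSI libraries, by limma's test of that difference with the replicate block (adjusted p under 0.05 over all genes). Without the block limma called none of these differences, and 875 genes had an unadjusted p under 0.05. Differences below are the log2 change in DMSO minus that in GSI.

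GZMA, the granule protease, had the widest gap, since it rose in DMSO (1.46) and its change in GSI was −2.12, a difference of 3.59 ± 0.32 SE (limma adjusted p = 0.000256). Several groups of genes rose in DMSO with a change in GSI that was near 0, below 0 or smaller than in DMSO. Among genes of glucose use, hypoxia and stress these were BNIP3 (difference 1.66 ± 0.20 SE), SLC2A3 (1.104 ± 0.08 SE), DDIT4 (0.83), and NDRG1 (0.79), which was at 0.32 in GSI. Among signalling and immune genes they were TRAF1 (1.13 ± 0.14 SE), DUSP4 (1.04 ± 0.11 SE), PRF1 (1.02), CST7 (0.58), IFI44 (0.40), and DUSP10 (0.72), which was at 0.25 in GSI. Among cycle and repair genes they were TK1 (0.43), DDB2 (0.42), and RRM1 (0.24). The Notch genes MAML2 (1.51 ± 0.31 SE) and LFNG (1.02 ± 0.24 SE) showed the same order.

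Some genes were lower in both, more so in GSI, as with ACY3 (difference 1.60), ID1 (1.05), CCND1 (1.01), RUNX3 (0.44), and SLC7A5 (0.37). IL7R (0.46) and GAPDH (0.29) did not pass in DMSO and were at −0.61 and −0.35 in GSI. Others were lower in both, more so in DMSO, namely BCL2L11 (−0.66 ± 0.07 SE, limma adjusted p = 0.000697), NOTCH3 (−0.57), TFAP4 (−0.49), ODC1 (−0.32), and WDR43 (−0.30). CD1E (−0.56) and SPEN (−0.27) fell in DMSO and were at 0.07 and 0.06 in GSI. SMPD1 (0.89), IL26 (0.78), PRKCQ (0.36), and CD5 (0.22) rose more in DMSO, while RAG2 (−0.41) and GATA3 (−0.41) rose less. NOTCH1 did not pass in DMSO and was at 0.35 in GSI, a difference of −0.36 ± 0.05 SE.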

How the results depend on the processing

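The count of called genes depended on the replicate block and on the number of pairs. It was 5622 (2686 higher, 2936 lower) with the block within treatment, 874 (391 and 483) with no replicate block, and 2368 (1024 and 1344) with a block shared by all 4 groups. Chosen after seeing the data, edgeR with no replicate block called 931 (386 and 545), and limma on the 6 DMSO libraries alone with no replicate block 998 (388 and 610). Leaving out each replicate pair in turn gave 2972 to 4201 genes (1396 to 1975 higher, 1576 to 2226 lower). For the difference between DMSO and GSI changes the count was 1177, and 0 with no replicate block in limma or edgeR, 40 with the shared block, 681 with no filter and 355 to 543 without each pair. The cause of these moves was not tested, beyond the smaller number of libraries in the last case. Upper-quartile scaling moved the median of all genes to 0.034 and the share of calls that were higher from 47.8% to 57.3%. Of 178 named genes called, among which CCND3, KLRD1 and GNLY were not counted, 100 were called under every alternative named in the methods. None of the 178 changed direction under any. Depth limits genes near the filter of 10, where a value rests on few reads.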
